A study of Mus musculus with 2 samples.

Results

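The replication-dependent histone genes encode the core histones H2A, H2B, H3 and H4 and the linker histone H1 that package newly copied DNA. All protein-coding genes of the GENCODE vM1 annotation (mouse build mm9) whose symbol begins with Hist1h, Hist2h, Hist3h or Hist4h were taken, which gave 67 of 22380 protein-coding genes. RNA polymerase II ChIA-PET joins and sequences the ends of DNA fragments held together in polymerase-bound chromatin, so that each paired-end tag (PET) links a pair of polymerase peaks, here called anchors. An anchor counted as a histone anchor when it lay within 1 kb of a member, and each pair of anchors was counted once. Histone anchors took part in 1118 of the 44328 pairs in Ronin_KO cells and in 3444 of the 128267 pairs in control cells. These pairs held 1251 PETs in Ronin_KO and 3801 in control cells, which were 1.92% and 2.44% of the library and gave a ratio of 32.9% (30.9% to 35.1%).

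Both groups were mouse embryonic stem cells made from blastocysts of a CreERT2 by Ronin flox/flox cross and grown with serum and LIF on gelatine, so the control cells carried CreERT2 and the floxed alleles too. Ronin_KO cells received tamoxifen and control cells ethanol, each for 4 days, and chromatin was precipitated with the 8WG16 antibody. The study merged 2 experiments per condition, which leaves 1 library for each group, so no replicate error can be given. Intervals below are exact 95% intervals of a ratio of PETs and cover counting error only, and every test compares these 2 libraries rather than the conditions.

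Replication-dependent histone genes are transcribed in large amounts while DNA is copied, at a nuclear structure called the histone locus body, where the coactivator NPAT gathers. Their messages end in a stem-loop bound by SLBP in place of a poly(A) tail. Embryonic stem cells divide quickly and spend much of their cycle copying DNA.

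The library of Ronin_KO cells held 65276 PETs and that of control cells 156097, a ratio of 41.8%. Pairs of 10 or more PETs, 171 in Ronin_KO and 218 in control cells, held 19791 and 25160 of these PETs, and without them the ratio was 34.7%. The scale against which a histone anchor is read therefore depends on these few pairs, and both scales are given below where they matter. Of 10 stem cell markers chosen, 9 were in the annotation and all 9 had PETs in both libraries, and none of 5 fibroblast markers, Col1a1, Col1a2, Col3a1, Thy1 and Vim, had any. Thap11, which encodes Ronin, had 46 PETs in Ronin_KO and 109 in control cells, a count of contacts that does not measure whether the gene was deleted.

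The members lay in 6 places. On chromosome 13, 23 genes filled 328 kb from 21807632 to 22135545 (the first subcluster), 31 genes filled 404 kb from 23622919 to 24026720 (the second subcluster), and Hist1h2al stood alone 27.3 Mb farther on at 51298057-51298434. The subclusters were 1487 kb apart. Chromosome 3 held 9 members between 96023839 and 96082924, chromosome 11 held Hist3h2ba and Hist3h2a, and chromosome 6 held Hist4h4. By type there were 6 H1, 19 H2A, 18 H2B, 11 H3 and 13 H4 genes.

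The study kept only reads with a single place in the genome, so the likeness of these genes to each other was measured beside their PETs. Across the members, the share of 30-base stretches found once in mm9 had a median of 44.4% and spanned 0% to 100%. The linker histone genes were the most distinct, with a median of 93.0% over the 6 H1 genes, against 31.7% over the H2A, 41.2% over the H2B, 39.1% over the H3 and 49.7% over the H4 genes. Hist1h1t, the testis form of H1, was unique throughout, at 100%, and Hist4h4 reached 98.9%. At the other end, 6 genes had no unique stretch: Hist1h2bq, Hist1h2ao, Hist1h2ap and Hist1h2br, which form 2 divergent H2B and H2A pairs, and Hist2h2aa1 and Hist2h2aa2. The 4 on chromosome 13 were the only members with no PET in either library, whereas Hist2h2aa1 and Hist2h2aa2 lay by an anchor with 15 PETs in Ronin_KO and 48 in control cells.

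**Figure D1:**
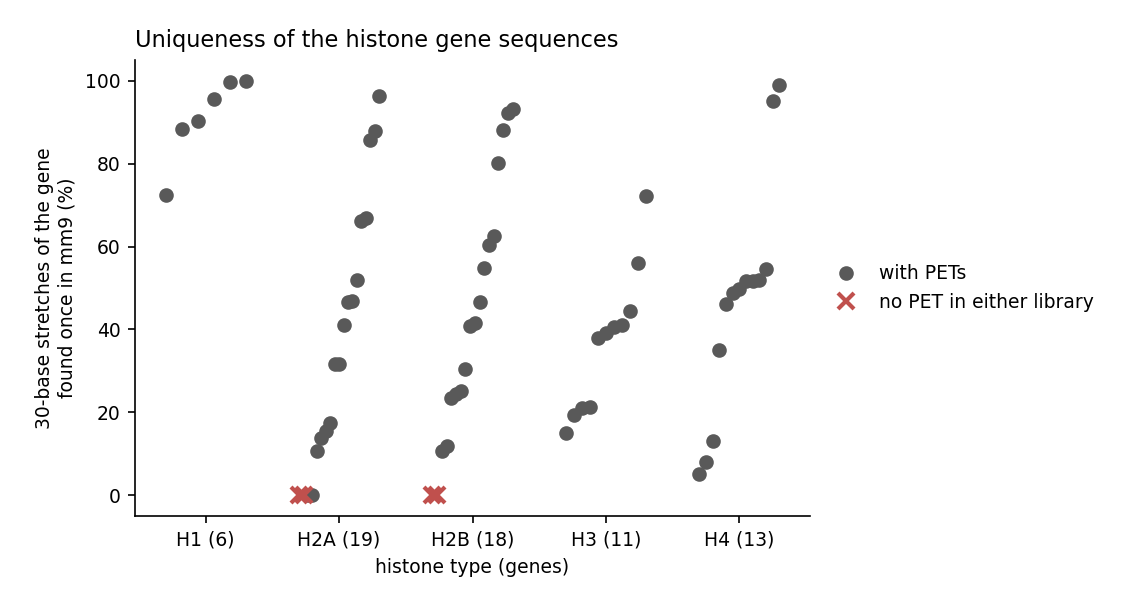
Share of the 30-base stretches of each member found once in mm9 (y axis, percent) by histone type (x axis, with the number of genes), 1 point per gene, spread sideways by rank. The 4 members without a PET in either library, marked by crosses, all lie at 0%, and the 6 H1 genes lie between 72.5% and 100%.

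The likeness reaches across chromosomes, as a window of the H2A coding sequence shows. The 180 bases below start at coding base 91 of each gene, run 5′ to 3′ on the gene's own strand in mm9, and have in capitals each base that differs from Hist1h2ai.
Hist1h2ai, chr13:21808381-21808560, plus strand: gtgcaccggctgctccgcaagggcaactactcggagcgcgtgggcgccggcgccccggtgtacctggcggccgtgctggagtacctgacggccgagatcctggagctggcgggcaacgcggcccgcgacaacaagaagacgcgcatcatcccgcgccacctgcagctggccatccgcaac
Hist1h2ad, chr13:23666430-23666609, plus strand: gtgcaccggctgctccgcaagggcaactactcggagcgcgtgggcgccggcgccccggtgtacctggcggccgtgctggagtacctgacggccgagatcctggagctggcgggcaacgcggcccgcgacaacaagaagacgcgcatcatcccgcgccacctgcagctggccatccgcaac
Hist1h2ac, chr13:23775517-23775696, minus strand: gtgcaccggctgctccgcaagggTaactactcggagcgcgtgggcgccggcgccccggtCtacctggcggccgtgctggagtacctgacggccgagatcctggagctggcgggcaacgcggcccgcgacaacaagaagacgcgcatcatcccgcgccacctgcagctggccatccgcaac
Hist2h2ac, chr3:96024498-96024677, minus strand: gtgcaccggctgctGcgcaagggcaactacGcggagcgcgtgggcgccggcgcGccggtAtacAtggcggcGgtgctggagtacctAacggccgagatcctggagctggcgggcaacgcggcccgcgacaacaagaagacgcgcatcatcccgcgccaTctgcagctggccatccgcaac
Hist3h2a, chr11:58768330-58768509, plus strand: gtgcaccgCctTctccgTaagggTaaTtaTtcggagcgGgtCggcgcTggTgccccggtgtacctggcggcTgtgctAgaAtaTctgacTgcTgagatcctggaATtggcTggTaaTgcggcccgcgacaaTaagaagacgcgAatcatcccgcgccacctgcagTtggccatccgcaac
Hist1h2ad, in the second subcluster, was identical to Hist1h2ai of the first over this window. Hist1h2ac differed at 2 bases and Hist2h2ac of chromosome 3 at 8, while Hist3h2a of chromosome 11 differed at 24 and was 86.7% identical. Of the linker histone genes below, Hist1h1a and Hist1h1t diverged more than the H2A genes shown for chromosome 13, and Hist1h1e did not. Hist1h1b and Hist1h1d were not aligned. An aligned 120-base window of the coding sequences is given, with differences from Hist1h1c in capitals.
Hist1h1c, chr13:23830838-23830957, plus strand: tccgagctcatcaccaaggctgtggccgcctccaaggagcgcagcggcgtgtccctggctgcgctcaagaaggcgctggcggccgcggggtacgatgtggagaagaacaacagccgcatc
Hist1h1e, chr13:23714127-23714246, minus strand: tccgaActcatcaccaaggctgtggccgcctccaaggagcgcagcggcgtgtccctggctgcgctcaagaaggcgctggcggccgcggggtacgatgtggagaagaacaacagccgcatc
Hist1h1a, chr13:23855712-23855831, plus strand: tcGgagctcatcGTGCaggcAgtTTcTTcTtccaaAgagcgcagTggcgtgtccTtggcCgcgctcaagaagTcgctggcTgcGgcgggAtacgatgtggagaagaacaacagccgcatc
Hist1h1t, chr13:23787864-23787983, plus strand: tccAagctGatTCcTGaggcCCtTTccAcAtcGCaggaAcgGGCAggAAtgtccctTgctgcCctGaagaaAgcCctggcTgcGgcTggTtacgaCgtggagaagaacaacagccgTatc
Hist1h1e differed from Hist1h1c at 1 base, Hist1h1a at 19 and Hist1h1t at 32.

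Most H2A genes stand back to back with an H2B gene and share the space between their starts, and 12 such pairs were annotated, 167 to 305 bases apart. All 12 spaces held at least 1 CCAAT box (CCAAT or ATTGG, the binding site of NF-Y), 5 held the octamer bound by Oct factors (ATTTGCAT or its reverse complement) and 5 a TATA box (TATAAA or TTTATA). The spaces of 3 pairs are shown in mm9 with these letters in capitals, since these pairs lie in 3 of the anchors described below.
Hist1h2bl to Hist1h2ai, chr13:21808013-21808280, plus strand: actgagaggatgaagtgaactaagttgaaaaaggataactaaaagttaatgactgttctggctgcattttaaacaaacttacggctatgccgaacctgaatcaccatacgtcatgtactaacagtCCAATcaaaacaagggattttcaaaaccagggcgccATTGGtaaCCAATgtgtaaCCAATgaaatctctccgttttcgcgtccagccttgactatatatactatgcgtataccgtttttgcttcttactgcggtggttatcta
Hist1h2ah to Hist1h2bk, chr13:22127513-22127689, plus strand: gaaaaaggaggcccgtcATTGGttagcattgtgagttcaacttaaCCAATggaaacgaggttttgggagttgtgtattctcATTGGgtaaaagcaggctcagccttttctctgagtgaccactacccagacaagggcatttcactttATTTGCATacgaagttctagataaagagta
Hist1h2ae to Hist1h2bg, chr13:23663090-23663264, plus strand: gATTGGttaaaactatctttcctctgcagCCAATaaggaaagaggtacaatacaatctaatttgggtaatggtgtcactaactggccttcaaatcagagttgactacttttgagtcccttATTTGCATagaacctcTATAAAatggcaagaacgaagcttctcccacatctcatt
In RefSeq promoters (GRCm38.p6, 250 bases before to 50 after the start), which gave a sequence for 60 of the 67 members, the octamer was in 21.7% of the members' promoters, against 1.75% of 27025 promoters of all genes. CCAAT was in 85.0% of the members' promoters and in 37.9% of all, and TATAAA in 58.3% and 14.2%. The octamer was found only in H2A and H2B promoters, 7 of 17 and 6 of 16. A motif in the space of a divergent pair can be counted for both genes, so these promoters are not all separate values. CCAAT was in 3 of 12 H4 promoters and in every H1, H2A, H2B and H3 promoter found. The Ronin-binding motif had no exact copy in the 19 histone peaks of Ronin_KO cells or the 23 of control cells, while 1.34% and 1.08% of all peaks held one. The histone peaks of each library together span only about 0.35 Mb, and all peaks held 1.67 and 1.77 copies per Mb.

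Of the 67 members, 60 had PETs in Ronin_KO and 63 in control cells, and these 60 were all among the 63. Every one of the 63 had fewer PETs in Ronin_KO cells before scaling, as 11392 of 12817 protein-coding genes did. After scaling the libraries to equal totals, 58 of 63 members had fewer PETs in Ronin_KO cells, beside 60.7% of all protein-coding genes with PETs. The 5 others were Hist3h2ba and Hist3h2a on chromosome 11 and Hist2h2ab, Hist2h2ac and Hist2h2be on chromosome 3. With totals that leave out the pairs of 10 or more PETs, 26 members had fewer and 37 more PETs in Ronin_KO cells, and 48.8% of all genes had fewer. Split by kind of pair, each scaled to its own total, 61 members had fewer interchromosomal PETs and 2 more, where 59.8% of all genes had fewer. Among intrachromosomal pairs the order turned, with 14 members lower and 46 higher in Ronin_KO cells, while 57.5% of all genes were lower. Members under 1 anchor share their PETs, so these counts hold far fewer separate values than genes.

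Merging peaks that overlapped between the libraries gave 20 histone anchors, 18 with a peak in Ronin_KO cells and 20 in control cells. They ranked high among all anchors: the median was 51.5 PETs in Ronin_KO and 104 in control cells, against 2 and 3 over all anchors, and 8 of 18 and 9 of 20 lay in the top 1% of their library. Anchor length goes with this, since the histone peaks had a median of 16.5 kb in Ronin_KO and 13.1 kb in control cells, and all peaks 4.74 and 3.28 kb, and its part in the ranks was not tested.

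The best-connected histone anchor (chr13:23826000-23865691) spanned 9 members from Hist1h1c to Hist1h1a, with 2 linker, 1 H2A, 1 H2B, 3 H3 and 2 H4 genes. It had 291 PETs in Ronin_KO and 795 in control cells, a ratio of 36.6% (31.9% to 41.9%). It ranked 24th of 15676 anchors in Ronin_KO and 11th of 25649 in control cells. Next came the anchor from Hist1h2bl to Hist1h2bn (chr13:21801065-21853374), with 8 members and no H1 gene, at 202 PETs in Ronin_KO and 622 in control cells (32.5%, 27.6% to 38.1%). The anchor from Hist1h3e to Hist1h2be (chr13:23653509-23690785), also with 8 members, had 164 PETs in Ronin_KO and 452 in control cells (36.3%, 30.2% to 43.5%). Hist1h3e reached a higher gene total, 230 and 656 PETs, because it lay within 1 kb of this anchor and of its neighbour.

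The anchor from Hist1h2ah to Hist1h2bj (chr13:22119275-22144332) holds 2 divergent H2A and H2B pairs and Hist1h4i. Its 128 PETs in Ronin_KO and 469 in control cells gave a ratio of 27.3% (22.3% to 33.3%). In a two-sided exact binomial test against the share of all PETs that came from Ronin_KO cells, Benjamini-Hochberg adjusted over 7336 anchors with at least 10 PETs, its adjusted p was 0.000888. It was the 1 histone anchor called lower of 16 tested, and 0 were called higher, beside 1.16% of all tested anchors called lower and 1.35% called higher. At an unadjusted p under 0.05, 4 of the 16 were lower and 0 higher. Measured against the total without the pairs of 10 or more PETs, the adjusted p was 0.339 and no histone anchor was called in either direction, where 0.518% of all anchors were called lower and 1.88% higher. On that scale 8 of the 16 lay below the ratio of the libraries and 8 above it.

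The smaller anchors spread more widely. The Hist3h2ba to Hist3h2a anchor of chromosome 11 had 38 PETs in Ronin_KO and 70 in control cells (54.3%, 35.6% to 81.7%), and that from Hist2h2ab to Hist2h2be on chromosome 3 had 31 and 65 (47.7%, 30.1% to 74.2%). The Hist4h4 anchor of chromosome 6, which also covers H2afj and Wbp11, had 38 and 138 (27.5%, 18.7% to 39.7%). None of these 3 passed the test after adjustment. Hist1h4m had 0 PETs in Ronin_KO and 9 in control cells, and Hist1h4n had 6 and 31, and only 8.04% and 5.24% of the stretches in these H4 genes were unique. Hist1h2ba and Hist1h2aa, known as testis-specific H2B and H2A forms, had 0 and 2 PETs, and Hist1h2al 1 and 4.

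**Figure D2:**
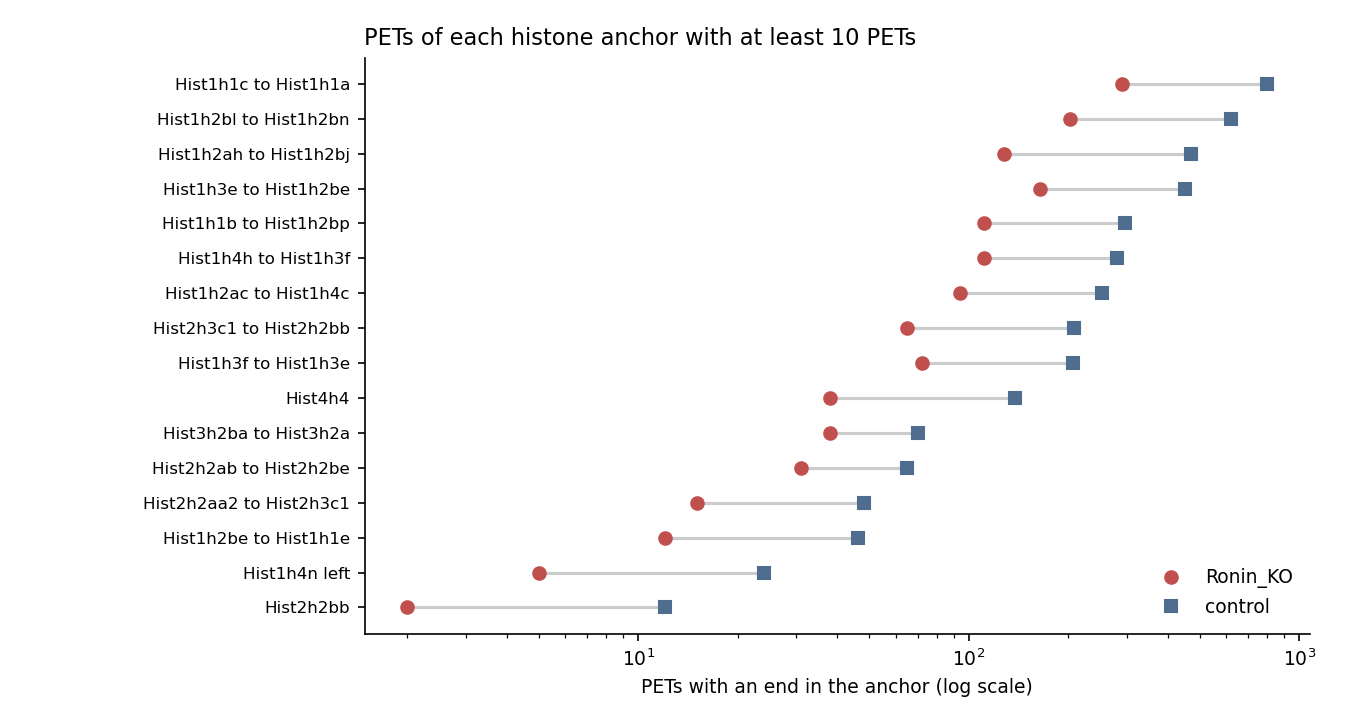
PETs with an end in each histone anchor of at least 10 PETs (x axis, log scale), in Ronin_KO (circles) and control cells (squares), with anchors named by their first and last member. Counts are unscaled, and Ronin_KO cells had fewer PETs at every anchor, from 2 against 12 at Hist2h2bb to 291 against 795 at the Hist1h1c to Hist1h1a anchor. Against the ratio of the libraries, 41.8%, 14 of the 16 anchors lay below and 2 above. Against the ratio of pairs under 10 PETs, 34.7%, 8 lay below and 8 above.

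Sorted by what they joined, the histone PETs did not scale together. PETs from histone anchor to histone anchor numbered 130 in Ronin_KO and 200 in control cells (65.0%, 51.7% to 81.5%), whereas PETs from histone anchors to everything else numbered 1121 and 3601 (31.1%, 29.1% to 33.3%). The intervals do not overlap, and the difference between the classes was not tested. Of the PETs among histone anchors, 120 in Ronin_KO and 185 in control cells lay within a chromosome. Of the others, 1063 and 3451 went between chromosomes, so the classes also differ in kind of pair. Within a cluster there were 73 PETs in 15 pairs in Ronin_KO and 107 PETs in 17 pairs in control cells (68.2%, 49.96% to 92.7%). The first subcluster held 16 and 36 of these, the second 56 and 71, and chromosome 3 1 and 0. Between the chromosome 13 subclusters there were 47 and 78 PETs, each in 13 pairs (60.3%, 41.0% to 87.6%), with gaps of 1471 to 1973 kb. At like distances the ratios of other intrachromosomal pairs lay inside these intervals. They were 54.3% (52.7% to 56.0%) under 0.4 Mb and 57.6% (50.3% to 65.9%) from 1.4 to 2.1 Mb. Among such pairs of at least 2 PETs they were 57.0% and 64.9%.

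Contacts with the rest of the genome had lower ratios than those among histone anchors, but the intervals of some single classes overlapped. Interchromosomal pairs with non-histone genes held 990 PETs in Ronin_KO and 3139 in control cells (31.5%, 29.3% to 33.9%), nearly all as pairs of 1 PET. The other interchromosomal pairs of the series stood at 40.7% (40.3% to 41.1%). With pairs under 10 PETs only, the histone pairs had 975 and 3118 PETs (31.3%, 29.1% to 33.6%), and the other pairs stood at 34.1% (33.7% to 34.5%). On the same chromosome, histone anchors had 45 and 122 PETs with non-histone genes (36.9%, 25.6% to 52.3%). The other intrachromosomal pairs of the series lay inside this interval, at 49.2% (48.1% to 50.3%). With pairs under 10 PETs only, they stood at 41.0% (39.7% to 42.4%). Anchors without a protein-coding gene within 1 kb gave 86 and 340 PETs (25.3%, 19.7% to 32.1%). Among pairs of at least 2 PETs, anchors without such a gene moved from lowest to highest of these 3 classes, with 6 and 14 PETs (42.9%, 13.5% to 119%). Interchromosomal pairs with non-histone genes had 50 and 333 (15%, 10.9% to 20.3%) and intrachromosomal ones 2 and 10 (20%, 2.13% to 93.9%). These intervals overlap, so the order is not settled.

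**Figure D3:**
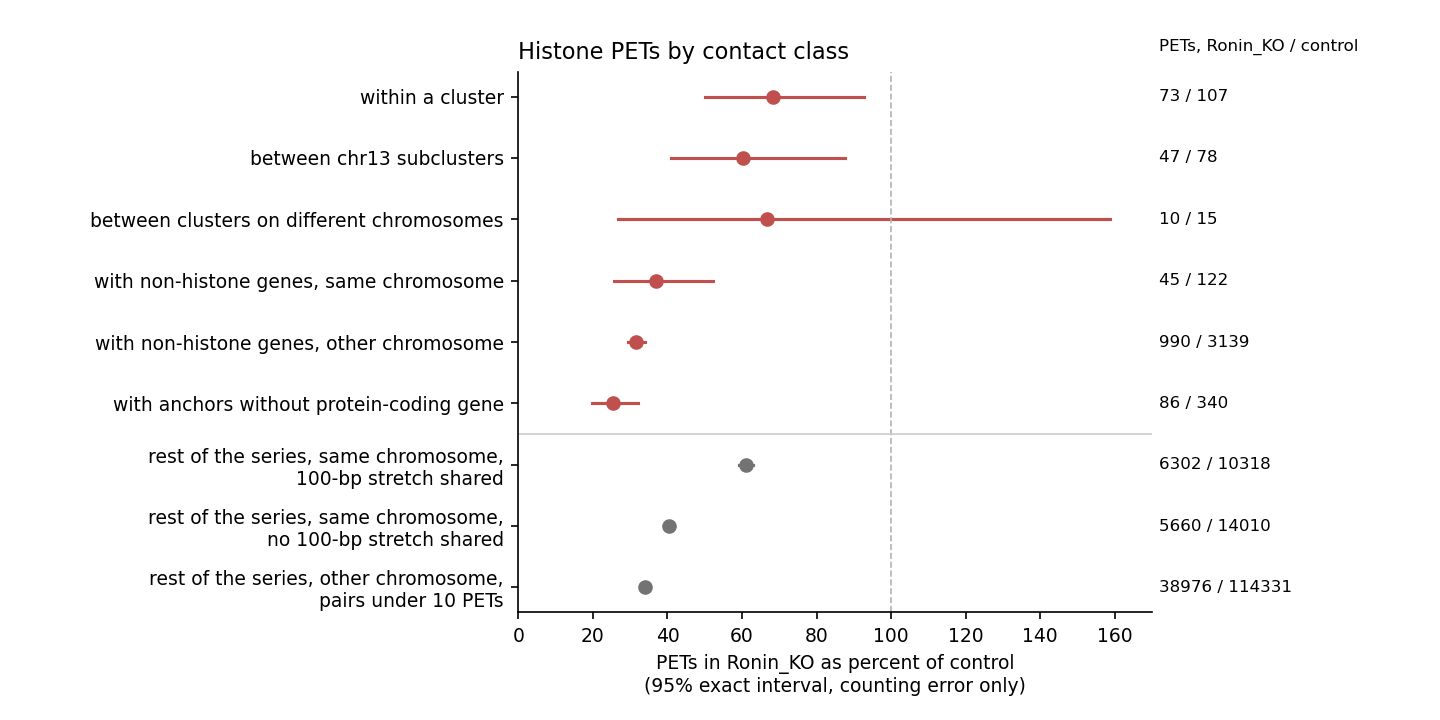
PETs in Ronin_KO as a percent of control (x axis) for 6 classes of histone contact (red) and 3 classes of the other pairs (grey); lines are exact 95% intervals and the counts stand at the right. The classes within histone clusters and between the chr13 subclusters, 68.2% and 60.3%, lie beside the 61.1% of other same-chromosome pairs that share a 100-base stretch.

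On chromosome 13, 8 anchors had at least 50 control PETs, which makes 28 possible pairs, and 23 of these were joined in Ronin_KO and 25 in control cells, 22 of them in both. The strongest pair in control cells joined the neighbours Hist1h2bl to Hist1h2bn and Hist1h1b to Hist1h2bp, with 8 PETs in Ronin_KO and 23 in control cells (34.8%, 13.5% to 80.5%). In Ronin_KO cells the strongest pair lay in the second subcluster, between the anchors Hist1h4h to Hist1h3f and Hist1h3e to Hist1h2be, with 16 and 14 PETs (114%, 52.3% to 253%). The anchor Hist1h3e to Hist1h2be was joined to Hist1h1c to Hist1h1a by 7 PETs in Ronin_KO and 13 in control cells, and Hist1h4h to Hist1h3f to the same anchor by 8 and 9. Of the other leading pairs within a subcluster, Hist1h2bl to Hist1h2bn with Hist1h2ah to Hist1h2bj had 6 and 7, and Hist1h2ac to Hist1h4c with Hist1h1c to Hist1h1a had 4 and 8. Pair by pair the counts are small, and 14 of 19 pairs within clusters were lower, 4 higher and 1 equal in Ronin_KO cells.

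Between the subclusters, the anchor Hist1h2bl to Hist1h2bn was the main partner from the first side. It was joined to Hist1h3e to Hist1h2be by 8 PETs in Ronin_KO and 19 in control cells, to Hist1h1c to Hist1h1a by 10 and 16, and to Hist1h4h to Hist1h3f by 4 and 9. Hist1h2ah to Hist1h2bj had 2 and 7 PETs with Hist1h1c to Hist1h1a, and 4 and 4 with Hist1h3e to Hist1h2be. Hist1h1b to Hist1h2bp also had 4 and 4 with Hist1h3e to Hist1h2be. Of 14 pairs seen in either library, 12 were seen in both, and 8 were lower, 4 higher and 2 equal in Ronin_KO cells.

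**Figure D4:**
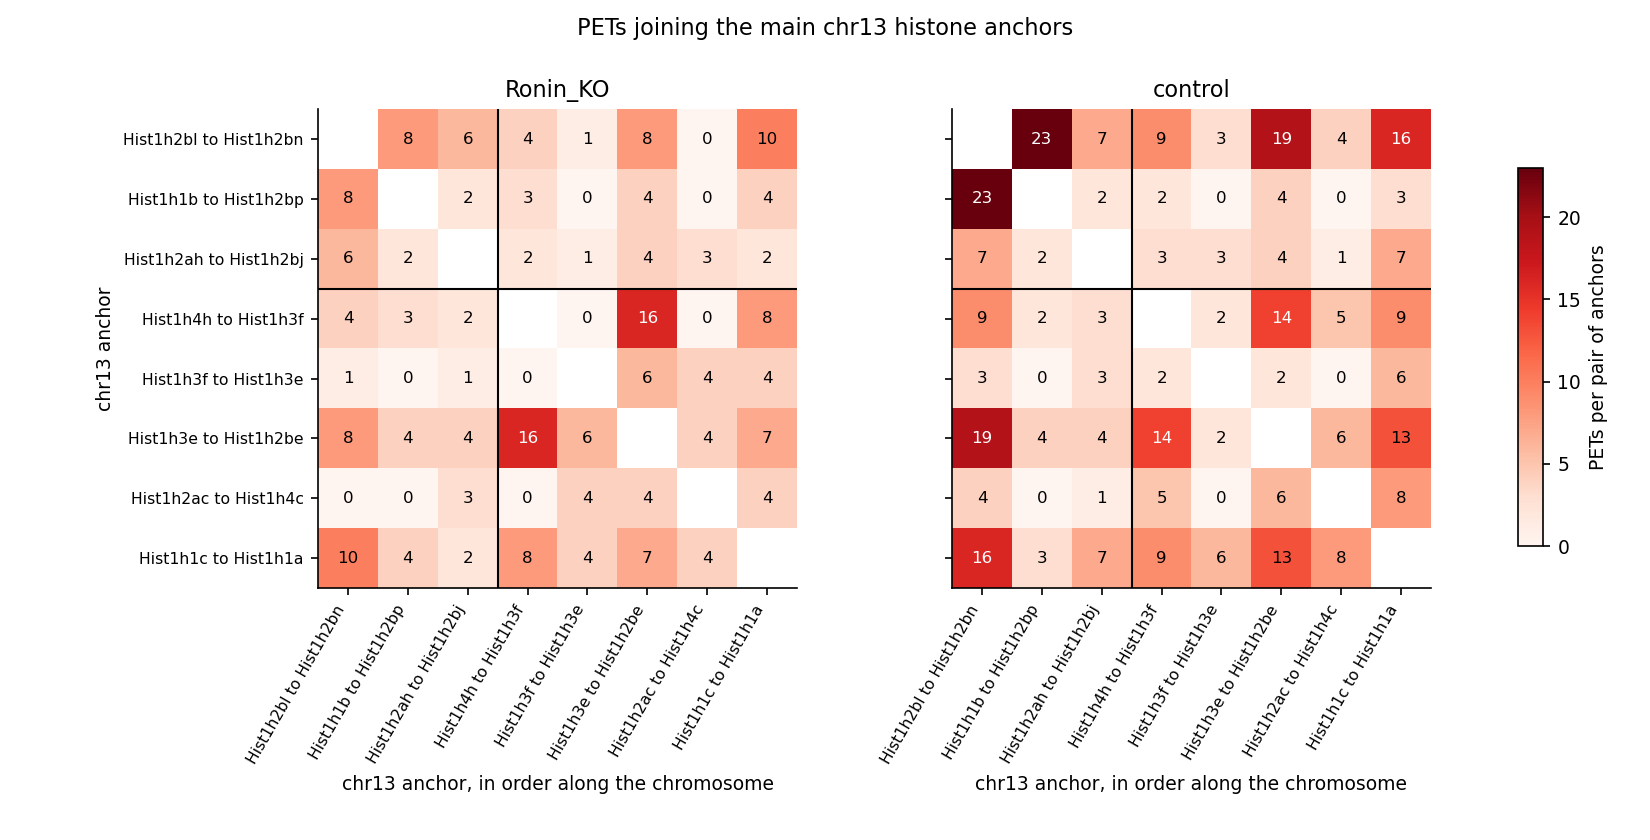
PETs for each pair of the 8 main chr13 histone anchors, in Ronin_KO (left) and control cells (right), with anchors in chromosome order on both axes and black lines dividing the subclusters. Both libraries fill the blocks between the subclusters, with up to 10 PETs in Ronin_KO and up to 19 in control cells.

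The 1487 kb between the subclusters held 38 protein-coding genes, 32 of them vomeronasal receptor (Vmn1r) genes, which act in scent detection. Only Abt1 and Zfp322a had PETs in either library. Abt1 had 6 PETs in Ronin_KO and 31 in control cells, 3 and 3 of which went to histone anchors, and Zfp322a had 3 and 7, with 0 and 1 to histones. Inside the clusters lay 10 other protein-coding genes, of which Gm17658 and Hfe lie under histone anchors and share their PETs. Zfp184 had 4 and 12 PETs and Prss16 1 and 3, and the other 6, Pom121l2, Trim38 and the Slc17a1, Slc17a2, Slc17a3 and Slc17a4 transporters, had none.

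Nearly all PETs between histone anchors of the same chromosome joined anchors that share sequence. Of these PETs, which all lay on chromosome 13 but for 1 of chromosome 3 in Ronin_KO, 93.3% in Ronin_KO and 97.8% in control cells joined anchors with an identical stretch of at least 100 bases. The same held for 52.7% and 42.4% of PETs in the other intrachromosomal pairs, and for 9.06% and 5.30% in the other interchromosomal pairs. At like distances the other pairs came nearer in PETs, with 65.8% in Ronin_KO and 58.3% in control cells under 0.4 Mb, and 77.0% and 63.7% from 1.4 to 2.1 Mb. Counted by pair, the share was 85.7% and 90.0% among the histone pairs, and 4.99% and 2.66% among the other intrachromosomal pairs. By distance, the latter stood at 7.17% and 4.13% under 0.4 Mb, and at 25.6% and 10.1% from 1.4 to 2.1 Mb. The longest stretches reached 333 bases within a cluster and 360 bases between the subclusters. The 360-base stretch lay in Hist1h2ah and Hist1h2ad. Of 28 joined pairs with such a stretch, the longest lay in H2A genes in 14, H4 in 6, H3 in 4, H1 in 3 and H2B in 1. It lay in Hist1h2ai and Hist1h2ad, printed above, for the leading pair between the subclusters, at 338 bases, and in the pseudogene Hist1h2aj and Hist1h2an for the leading pair within a cluster, at 293 bases.

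Sharing was close to general among the large anchors, so joined and unjoined pairs could not be set apart by it. Of the 28 possible pairs, 26 shared at least 100 bases, and of these 22 were joined in Ronin_KO and 24 in control cells. The pairs without such a stretch were few: 1 of the 2 was joined in each library, by 6 and 2 PETs. Histone pairs of all classes without a 100-base stretch held 18 PETs in Ronin_KO and 19 in control cells (94.7%, 46.9% to 191%), and those with a stretch 112 and 181 (61.9%, 48.4% to 78.8%). Of the PETs without a stretch, 10 and 15 went between chromosomes, while all those with a stretch lay within a chromosome. These histone pairs with and without a stretch therefore also differ in kind of pair. Other pairs of the series with a shared stretch stood at 61.1% (59.2% to 63.0%) on the same chromosome and at 69.5% (67.0% to 72.2%) between chromosomes. Without a stretch, other same-chromosome pairs stood at 40.4% (39.2% to 41.7%). The part of shared sequence in the histone contacts was not tested.

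**Figure D5:**
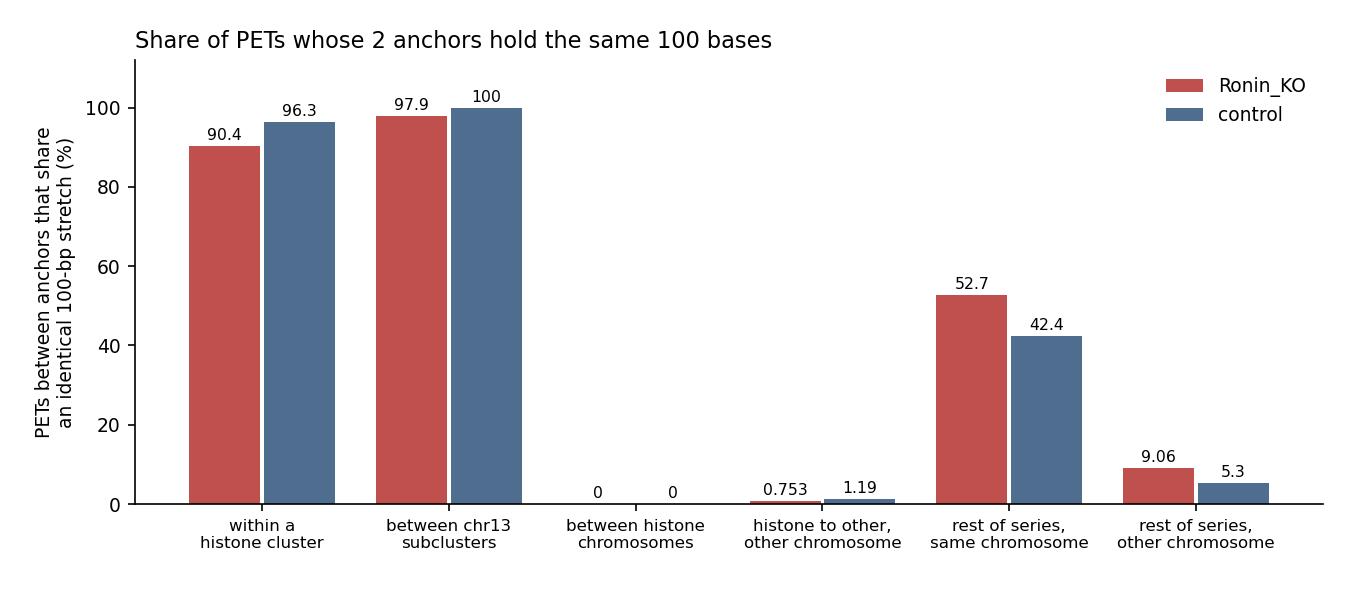
Percent of PETs (y axis) whose 2 anchors hold an identical stretch of at least 100 bases, by class of pair, in Ronin_KO (red, left bars) and control cells (blue, right bars). Contacts within a histone cluster and between the chr13 subclusters lie at 90.4% or above in both libraries. Contacts between histone clusters of different chromosomes, whose anchors share at most 95 bases, lie at 0%.

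Contacts between histone clusters on different chromosomes were few and shared shorter stretches, of 26 to 95 bases. They held 10 PETs in 5 pairs in Ronin_KO and 15 PETs in 10 pairs in control cells (66.7%, 26.8% to 159%). In each library, 80% of these PETs joined anchors with an identical stretch of at least 50 bases. The same held for 51.4% of PETs in Ronin_KO and 42.6% in control cells in the other interchromosomal pairs. The Hist3h2ba to Hist3h2a anchor with Hist1h2bl to Hist1h2bn had 3 and 2 PETs and was the only pair in both libraries. Hist1h1c to Hist1h1a was joined to Hist2h2ab to Hist2h2be by 4 and 0 PETs, to the Hist4h4 anchor by 0 and 4, and to Hist3h2ba to Hist3h2a by 0 and 2. The remaining 10 pairs of anchors had 1 PET each, in 1 library only. Grouped by cluster, the second subcluster and chromosome 3 had 5 PETs in Ronin_KO and 4 in control cells, through different pairs of anchors.

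Among non-histone genes on other chromosomes, 1546 were joined to a histone anchor in Ronin_KO and 3451 in control cells, through 859 and 2209 partner anchors. Pairs of 2 or more PETs made up 1.88% of these pairs in Ronin_KO and 5.01% in control cells, beside 1.51% and 1.21% of the other interchromosomal pairs. Joined here means at least 1 PET. An authors' adjusted p under 0.05 was reached by 803 of 958 pairs in Ronin_KO and 1646 of 2954 in control cells. The study asked for several independent PETs in a high-confidence interaction. It left interchromosomal interactions out of its further analyses, as they are reported to be noisier.

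Rec8, a cohesin subunit of meiosis on chromosome 14, had the most PETs with histone anchors over both libraries together. Its anchors had 15 PETs in Ronin_KO and 24 in control cells with the Hist1h2ac to Hist1h4c anchor, in the Ronin_KO pair chr13:23769740-23793620 with chr14:56235928-56245419. This was 88.2% of the 17 Rec8 PETs in Ronin_KO and 80.0% of the 30 in control cells. The longest stretch shared by the 2 anchors of that pair was a 71-base dinucleotide repeat with 2050 exact, non-overlapping copies in mm9. Ipo4, next to Rec8, is counted at 15 and 3 because the peak of Ronin_KO cells reaches it. Without the Rec8 pairs, the interchromosomal ratio with non-histone genes was 31.3%.

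The other leading genes were spread over many histone anchors. Gm10800 on chromosome 2 had 5 PETs with histone anchors in Ronin_KO and 26 in control cells, out of 7485 and 9614 in all. Gm20388, a gene model of over 4 Mb on chromosome 8, had 9 and 21. Frmd8 had 0 and 13, with 95 and 663 PETs in all, and Lax1 had 2 and 10. A chromosome 19 anchor with 8 genes, among them the RNA export factor Nxf1, Taf6l and Wdr74, had 4 and 8, and Tex14 had 6 and 6. On the same chromosome no gene passed 3 PETs in Ronin_KO or 4 in control cells: Abt1 had 3 and 3, Jarid2 1 and 4, and Arrdc3 0 and 4. Genes with 3 PETs over both libraries came next. Of these, Arid4b, Bola1, Cdk13, Gcnt2, Sv2a and Zfp367 had 0 and 3 each. Cetn3, Dimt1 and Kif2a had 1 and 2 each, and Arl15 had 2 and 1.

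Genes that act at the histone locus body or on histone messages and proteins were listed next. Of 29 such genes, 28 had PETs in Ronin_KO and all 29 in control cells, and 3 and 13 of them were joined to a histone anchor, by 5 and 26 PETs. That is 0.865% of their PETs in Ronin_KO and 1.59% in control cells. Over all non-histone genes with PETs, 14.1% of genes in Ronin_KO and 28.4% in control cells were joined to a histone anchor, by 1.104% and 1.32% of PETs summed over genes. Of the 9 stem cell markers, 1 and 5 were joined, by 0.417% and 1.30% of their PETs. Slbp, which binds the stem-loop, had 1 and 6 PETs with histones, Lsm10 of the U7 snRNP 0 and 3, and the chaperone Nasp 0 and 3. The NPAT gene had 0 and 1 of its 16 and 45 PETs with histones, and Casp8ap2 (FLASH) 0 and 2 of 27 and 119. Chaf1a, of the CAF-1 chromatin assembly complex, had 3 and 2. In all, 19 of the 29 had fewer and 10 more PETs in Ronin_KO cells after scaling to equal totals, beside the 60.7% fewer over all genes. These genes were not counted on the totals without the pairs of 10 or more PETs, where 48.8% of all genes had fewer.

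Replication-independent histone genes, whose messages carry a poly(A) tail, were taken as a further list. Of 12 listed, 11 were in the annotation and 9 had PETs in each library. Joined to a replication-dependent histone anchor were 5 in Ronin_KO and 6 in control cells, by 7 and 22 PETs, or 2.12% and 2.38% of their PETs. Over all non-histone genes with PETs, 14.1% and 28.4% of genes were joined, by 1.104% and 1.32% of PETs. H2afx had 1 and 9 of these from 42 and 123 PETs in all, H3f3b 1 and 6 from 86 and 212, and H2afv 3 and 4 from 69 and 201. H2afj shares the Hist4h4 anchor, so its 38 and 138 PETs count in the total of the list but none of them as joined. After scaling to equal totals, 7 of the 9 had fewer and 2 more PETs in Ronin_KO cells, beside 60.7% fewer over all genes. Only this scale was used for the list, and without the pairs of 10 or more PETs the share over all genes was 48.8%.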

How the data were processed

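Per the study's methods and the submitters' processing notes, the authors trimmed linkers with cutadapt, mapped each mate to mm9 with Bowtie 1.1.1 (unique hits, up to 2 mismatches), collapsed duplicates, called peaks with MACS 1.4.2, dropped intrachromosomal PETs under 4 kb and merged 2 experiments per condition. The deposited tables give whole-number counts of PETs for each pair and each peak, a signed distance score, and the authors' p-value per pair with its Benjamini-Hochberg adjusted value. All deposited pairs were kept, those of 1 PET and those between chromosomes included. Peaks within 1 kb of a GENCODE vM1 gene body were assigned to it, and members under 500 kb apart formed a cluster. Ratios of PETs carry exact conditional binomial (Clopper-Pearson) intervals at 95%. Peaks overlapping by at least 1 bp between libraries were merged, and those of at least 10 PETs were tested with a two-sided exact binomial test, called at an adjusted p under 0.05. The test was checked on simulated data. Python 3.11.15, numpy 2.4.6, pandas 2.3.3 and scipy 1.17.1 were used. In full are given the 12 members with the most PETs, the 6 leading pairs of anchors per class and the 10 leading non-histone partners with ties. The members, lists and tests were chosen with earlier results of these data known. Alternatives changed the pairs, gene window, cluster gap and scaling.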

Additional observations from a re-analysis of the deposited data

How the results depend on the processing

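Of 90 recomputed values, 69 kept to the interval of the main value or, for counts, to within 1.5 times of it, and 21 moved. With only pairs of an authors' adjusted p under 0.05, Ronin_KO PETs were 46.5% of control over all histone pairs and 46.6% for interchromosomal pairs with non-histone genes. Between histone clusters on different chromosomes they were 160% (46.2% to 622%), on only 8 and 5 PETs. With at least 2 PETs, the ratio was 20% for intrachromosomal pairs with non-histone genes, on 2 and 10 PETs, and 15% for interchromosomal ones. For anchors without a protein-coding gene the ratio was 42.9%, on 6 and 14 PETs. Without pairs that share 100 bases it was 175% within a cluster, on 7 and 4 PETs, and without pairs that share 50 bases 200% within a cluster, on 2 and 1 PETs, and 30.5% over all pairs. Neither filter left a control PET between the subclusters, so no ratio exists there. Counting pairs in place of PETs gave 100% between the subclusters.

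Scaling decided the direction of the gene counts. Scaled to PETs over 5 kb in the study's library table, or unscaled, 0 members had more PETs in Ronin_KO cells. Alternatives added after seeing the data turned the majority: with totals of pairs under 10 PETs, 26 were lower and 37 higher, and with intrachromosomal pairs only, 14 were lower and 46 higher. With interchromosomal pairs only, 2 were higher. Histone anchors called lower numbered 13 with the totals of PETs over 5 kb, 4 of 9 tested with at least 2 PETs, 0 with totals of pairs under 10 PETs and 0 with intrachromosomal pairs only. No paired analysis was possible because each condition has 1 merged library, and for the same reason no replicate could be left out. Depth limits single pairs, most of which rest on 1 PET.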

Other observations

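The interchromosomal PETs of the chromosome 13 histone anchors with anchors outside the histone clusters were also sorted by partner chromosome. Leaving out the mitochondrial genome, with 2 PETs in each library, the ratio of Ronin_KO to control PETs spanned 15.8% to 37.8% over the partner chromosomes. Chromosome 15 was lowest, with 19 PETs in Ronin_KO and 120 in control cells (exact 95% interval 9.21% to 25.8%). Other interchromosomal pairs of chromosome 15 under 10 PETs stood at 32.9%. Chromosome 15 was singled out after its value was seen among all partner chromosomes, and the difference was not tested.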
